A study of Mus musculus with 17 samples.

Results

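The sites described here were CCCGGG sequences that carried methylation in the blood of young mice, lay in sequence poor in CpG and were inside a gene but away from its start. They were picked on the autosomes among sites that 13 or more of the 17 mice covered with 100 or more reads. The mean raw methylation, the share of methylated reads, had to be above 80% over the 5 AL-young mice. The 500 bp of the mm9 genome around the site had to have a GC content below 50% or a ratio of observed to expected CpG below 0.6. Each site had to lie inside a gene of GENCODE vM1 and outside the stretch from 1000 bp before to 500 bp after any transcription start. Of 15742 autosomal sites with that depth, out of 173449 sites listed per mouse, 2088 met the rule, and 1043 different genes gave them their names. The high level in young mice is therefore a condition of the choice, made on the raw values of these same mice, and every comparison with AL-young mice below is a description without a test.

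Whole blood came from C57BL/6 mice, an inbred strain, and methylation in it was read with DREAM, a sequencing assay built on a pair of restriction enzymes. SmaI cuts CCCGGG only when it is unmethylated and XmaI then cuts the rest, so the end of each sequenced fragment shows the state of its site. The 5 AL-young mice (2 females, 3 males) were fed ad libitum (AL) and aged 4 months. The 7 AL-old mice (5 females, 2 males) were fed ad libitum and aged 29 to 33 months, and the 5 CR-old mice (2 females, 3 males) lived under caloric restriction (CR) to an age of 32 to 38 months. The study's text places the start of restriction in early adult life, and all mice were bought from a rodent colony kept for such work. Middle-aged mice were not analysed here. Whole blood is a mixture of cells, so a shift in the shares of its cell types and a change within 1 type cannot be told apart in any value below.

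Most CpGs of a mammalian genome lie outside CpG islands (CGIs) and are methylated. The maintenance enzyme Dnmt1 copies this state when a cell divides, the de novo enzymes Dnmt3a and Dnmt3b add to it, and Dnmt3b is guided to the bodies of transcribed genes by a histone mark that elongating polymerase leaves behind. Sites of this kind are known to lose methylation in part of the cells as a tissue ages, while islands gain it, a process called methylation drift.

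The 12 sites below carry the results. The first 6 are among the sites with the largest falls in AL-old mice, the next 4 had lower levels in CR-old than in AL-old mice, and the last 2 hardly varied among all 17 mice. Each line gives the plus strand of mm9 from 40 bases before to 40 bases after the CCCGGG, with the measured site and every other CpG in capitals.
Sik1, chr17:31984047-31984132: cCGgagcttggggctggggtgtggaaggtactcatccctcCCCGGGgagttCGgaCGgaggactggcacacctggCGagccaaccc
Zbtb32, chr7:31375142-31375227: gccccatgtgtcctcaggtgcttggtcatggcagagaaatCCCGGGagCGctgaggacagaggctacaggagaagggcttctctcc
Tmem222, chr4:132827009-132827094: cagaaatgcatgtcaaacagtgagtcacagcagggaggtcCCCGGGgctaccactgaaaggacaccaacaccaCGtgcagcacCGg
Dusp10, chr1:185871186-185871271: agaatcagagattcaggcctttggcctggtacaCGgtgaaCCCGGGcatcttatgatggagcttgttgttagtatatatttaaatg
Cyba, chr8:124951871-124951956: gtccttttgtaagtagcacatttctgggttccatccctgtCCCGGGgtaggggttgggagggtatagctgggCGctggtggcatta
Dnahc1, chr14:32099094-32099179: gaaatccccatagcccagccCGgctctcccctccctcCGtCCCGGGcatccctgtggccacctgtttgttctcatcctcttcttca
Tnrc18, chr5:143549002-143549087: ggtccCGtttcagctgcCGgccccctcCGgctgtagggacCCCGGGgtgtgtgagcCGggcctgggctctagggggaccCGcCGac
Nos1ap, chr1:172503585-172503670: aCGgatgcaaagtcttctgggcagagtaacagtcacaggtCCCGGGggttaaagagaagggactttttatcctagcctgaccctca
Zmiz1, chr14:26399068-26399153: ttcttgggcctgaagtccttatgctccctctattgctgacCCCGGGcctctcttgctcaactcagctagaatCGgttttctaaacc
Acad9, chr3:35970181-35970266: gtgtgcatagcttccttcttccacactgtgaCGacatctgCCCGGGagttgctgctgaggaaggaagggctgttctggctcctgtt
4933411G11Rik, chr5:143961968-143962053: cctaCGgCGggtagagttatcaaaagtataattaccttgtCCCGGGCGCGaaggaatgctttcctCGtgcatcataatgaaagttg
Crebbp, chr16:4167755-4167840: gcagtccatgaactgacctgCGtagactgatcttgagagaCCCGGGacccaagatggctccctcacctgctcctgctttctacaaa
These 86-base stretches held between 1 and 6 CpGs beside the measured one. The stretch around the Crebbp site, which stayed fully methylated, and those around the Dusp10 and Cyba sites, which did not, each held 1.

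The 2088 sites were mostly intronic. An intron held 1544 of them (73.9%), a coding exon 404 (19.3%), an untranslated exon 106 and an exon of a non-coding transcript 34. Among all 15742 tested sites 41.4% were intronic and 13.7% lay in a coding exon. The median site had a GC content of 52.8%, a ratio of observed to expected CpG of 0.296 and 10 CpGs in 500 bp, against 62.4%, 0.677 and 33 over all tested sites. The low CpG ratio was mostly what admitted them, since 1399 sites met that limit alone, 8 met the GC limit alone and 681 met both. A CGI lay within 2 kb of 538 sites (25.8%), against 74.6% of all tested sites. The median distance to the nearest transcription start was 8576 bp. Protein-coding genes held 2040 of the sites. Up to 23 sites had the same gene name, in that case Gm20388, a gene model that spans 122434741 to 126869622 on chromosome 8 (mm9) across many other genes. The names of its sites say little about function.

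Sequencing gave 6.41 to 51.6 M reads per mouse, and the median site had from 128 reads in the shallowest to 2120 reads in the deepest mouse. For a level of 94% read 100 times, the Wilson method puts the 95% confidence bounds at 87.5 and 97.2%, for counting error only. The authors corrected each mouse by spiked DNA standards, and adjusted methylation is used below unless raw is stated. The correction multiplied the odds of methylation by a factor between 0.872 and 1.13 in 11 mice. It was from 1.403 to 3.96 in the 5 AL-old females and CR-old 06, a female, where the number names the mouse. These are called high-correction mice below. High correction cannot be told apart from female sex among the AL-old mice, and the AL-young group holds none. The correction did not bring all standards together, since 1 (Kan_1) read from 17.8 to 23.4% after it in the 6 high-correction mice and from 30.0 to 36.4% in the other 11, and another (Gfp_1) from 55.4 to 66.8% and from 37.6 to 43.1%. AL-old 25, a male of 33 months with a factor of 0.872, differed from the AL-young mice by 2.36 points per site on average, against 1.41 to 1.83 points among the AL-young mice themselves, 5.35 to 13.6 points for the other AL-old mice and 3.42 to 6.56 points for the CR-old mice. Its label was kept, and results that rest on it are given with and without it.

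At the gene body sites the mean level in AL-young mice was 94.4 ± 0.597% (SD, n = 5). It was 89.6 ± 3.81% for the AL-old (n = 7) and 90.8 ± 2.34% for the CR-old group (n = 5). The AL-old mice ran from 82.0% in AL-old 27 over a median of 90.7% to 93.0% in AL-old 25. The CR-old mice were at 90.6% (CR-old 02), 94.5% (CR-old 06), 88.04% (CR-old 19), 89.8% (CR-old 20) and 90.9% (CR-old 22). On this adjusted scale every AL-old mouse was below the lowest AL-young mouse (93.7%), and CR-old 06 alone among the CR-old mice was not. In raw methylation AL-old 25 (93.99%) was above the lowest AL-young mouse (93.94%), and CR-old 06 (91.2%) was below it. AL-old and CR-old mice overlapped almost fully. CR-old mice were compared with AL-old mice, a contrast the choice of sites did not use, and sites called for diet below were called in it. The CR-old mice were also older (32 to 38 against 29 to 33 months), and sex and correction were unequal between the 2 groups. Diet cannot be told apart from these differences here. The difference of 1.16 points between CR-old and AL-old mice was smaller than the spread between mice (exact permutation test over 792 splits, two-sided p = 0.607). In raw methylation the groups were at 94.4 ± 0.320, 85.5 ± 5.96 and 90.1 ± 1.73%, and CR-old mice exceeded AL-old mice by 4.69 points (exact permutation p = 0.129). The size of that gap thus depended on the correction. Without AL-old 27 the adjusted difference was -0.113 points, and without AL-old 25 it was 1.73 points (exact permutation p = 0.933 and 0.444).

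**Figure D1:**
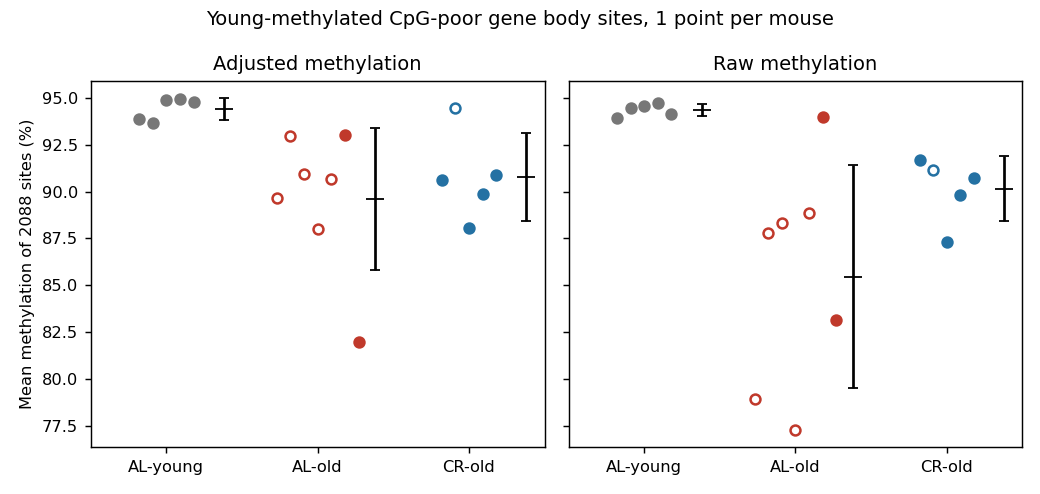
Mean methylation over the 2088 gene body sites in percent, adjusted on the left and raw on the right, with 1 point per mouse, open points for the 6 high-correction mice and bars for the group mean ± SD. AL-old mice spread from 82.0 to 93.0% after and from 77.2 to 93.99% before the correction, while AL-young mice stay within 93.7 to 94.9%.

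Old mice differed far more in how many sites had lost methylation than in their mean. A site was counted as low in a mouse when it lay at least 10 points under the AL-young mean of that site. The share of low sites was 2.76% in AL-old 25 and 36.0% in AL-old 27, though both were males of 33 months with a correction factor near 1. It was between 9.98 and 21.6% in the 5 high-correction AL-old females. In CR-old mice it was 7.96% (CR-old 02), 5.59% (CR-old 06), 17.7% (CR-old 19), 9.72% (CR-old 20) and 7.44% (CR-old 22), and no AL-young mouse was above 0.192%. The ranges of the AL-old and CR-old mice overlapped. In raw methylation the order of the mice changed, with 42.9% in AL-old 08, 37.9% in AL-old 13, 33.5% in AL-old 27, 17.7 to 21.97% in the other 3 AL-old females and 0.885% in AL-old 25. The raw share was 12.3% in CR-old 06 and 4.89 to 21.4% in the other CR-old mice. Most of the sites with a low value had it in 1 or 2 AL-old animals. Among the 1186 sites with 100 reads in all 17 mice, 560 (47.2%) were low in 0 of 7 AL-old mice, 275 (23.2%) in 1, 157 (13.2%) in 2 and between 41 and 65 each in 3, 4, 5 or 6. In CR-old mice 894 (75.4%) were low in 0 of 5, and 8 (0.675%) in all 5. Only 2 sites were low in all 7 AL-old mice, and both lay in introns. One was in Csf1, the growth factor of macrophages, at 107561311 to 107561316 on chromosome 3, where AL-old mice ran from 7.69 to 71.7% and CR-old mice from 55.3 to 64.1% around an AL-young mean of 81.9%. The other was in Nfix, a transcription factor of the nuclear factor I family, which is described below. Both were picked out after their values were seen.

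**Figure D2:**
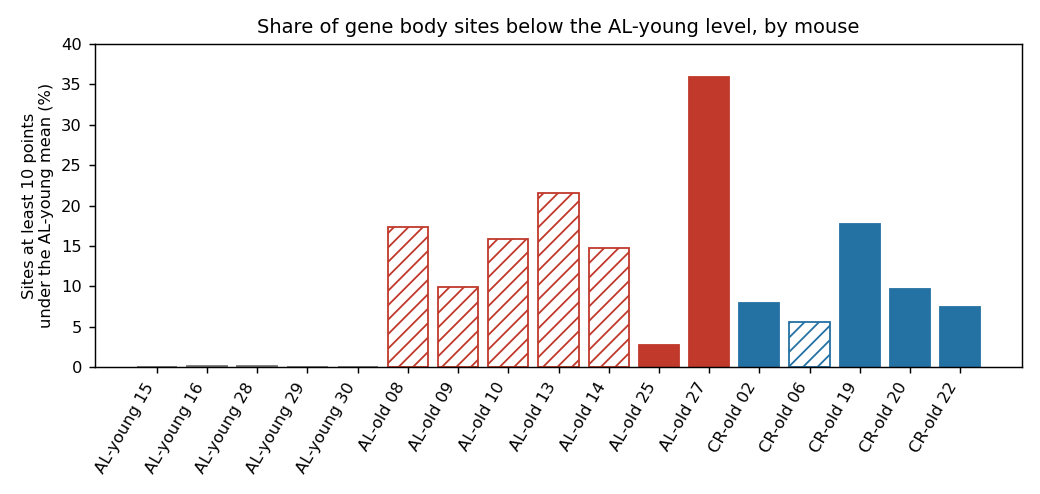
Share in percent, from adjusted values, of the gene body sites measured in a mouse that lay at least 10 points under the AL-young mean of the site, 1 bar per mouse, hatched for high-correction mice. On this adjusted scale the highest bar is AL-old 27 at 36.0% and the lowest among old mice AL-old 25 at 2.76%, while in raw values AL-old 08 (42.9%) and AL-old 13 (37.9%) exceed AL-old 27 (33.5%).

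The distance between animals of a group was larger in AL-old than in CR-old mice. The mean absolute difference between 2 mice of a group over these sites was 1.62 points within AL-young (10 pairs, 1.21 to 1.99), 9.28 points within AL-old (21 pairs, 5.02 to 13.5) and 4.39 points within CR-old mice (10 pairs, 2.47 to 7.62). The gap of 4.89 points between AL-old and CR-old mice had an exact permutation p of 0.0328 (792 splits, two-sided). It was 7.89 points in raw methylation (exact permutation p = 0.00505). The call was lost when AL-old 08, AL-old 27, CR-old 02, CR-old 20 or CR-old 22 was left out, with gaps of 3.32 to 5.36 points and exact permutation p between 0.0519 and 0.0879. Among mice with a factor under 1.3 the AL-old group was down to 1 pair, the unlike males AL-old 25 and AL-old 27, with a gap of 9.84 points (exact permutation p = 0.0667, which is the lower bound with 15 splits). The distance also takes in counting error and the correction, which were unequal. The median site had 128 to 497 reads in AL-old and 339 to 499 in CR-old mice, and 5 of 7 and 1 of 5 were high-correction mice. The part of these in the gap was not tested.

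From AL-young to AL-old mice the median change over the 2088 sites was -1.13 points. The choice by a high young level left little room to rise, since the median AL-young mean was 95.96% and the lower quartile 91.9%. Most sites could not rise by 10 points, so an excess of falls over rises is not read as a result for either old group. The mean level was at least 10 points lower at 342 sites (16.4%), 66 of which were at least 30 points lower, and at least 10 points higher at 7 sites (0.335%). In raw methylation 601 sites (28.8%) were at least 10 points lower, 136 of them by at least 30 points, and 4 were at least 10 points higher. Over all 15742 tested sites 6.80% were at least 10 points lower and 6.21% higher (11.2 and 3.44% in raw methylation), but their median AL-young mean was 0.71%. Of the young-methylated CpG-poor sites elsewhere, described below, 19.7% of the intergenic and 21.6% of the promoter sites were at least 10 points lower (32.4 and 29.4% in raw methylation). Without AL-old 25 the number of gene body sites that were at least 10 points lower was 417, for which no share over all tested sites is given. Over the 342 sites, which were chosen by these values, the median level was between 55.3% (AL-old 27) and 81.1% (AL-old 09) in 6 AL-old mice, 90.65% in AL-old 25 and between 83.1 and 89.0% in CR-old mice, and AL-young mice had 91.5 to 93.0%. With edgeR, fitted over all sites with the correction factor as an offset, 183 of the gene body sites passed an adjusted p of 0.05 with means at least 2 points apart as lower in AL-old mice and 44 as higher. The background over all tested sites was 3.33% lower and 7.62% higher, and since the rule used the young values nothing is read from the count. The numbers were 339 lower and 7 higher without the offset (background 5.86 and 3.9%) and 227 and 2 among mice with a factor under 1.3 (2.8 and 6.85%). With a term for high against low correction in place of the offset, called the correction term, they were 89 and 0 (0.997 and 4.59%, with 477 and 2 at an unadjusted p under 0.05). From AL-young to CR-old mice the median was -2.53 points. At least 10 points lower were 128 sites (6.13%), against 3.36% of all tested, 7.55% of the intergenic and 6.53% of the promoter sites. At least 10 points higher were 0. In raw methylation 170 (8.14%) were at least 10 points lower and 0 at least 10 points higher, against 4.41 and 0.635% of all tested sites. By edgeR 2 of the 2088 sites were lower in CR-old mice (background 0.0254%) and 0 higher (background 0.0127%), with 263 and 2 at an unadjusted p under 0.05 and 0 in either direction by limma (background 0% lower and 0.00635% higher). The number of lower sites differed between fits, for a reason that was not tested. Without the offset it was 0, with 286 at an unadjusted p under 0.05. Among mice with a factor under 1.3 it was 234 (11.2%, background 3.08%) with 1067 at an unadjusted p under 0.05, and with the correction term it was 12 (background 0.191%) with 379. In these last 2 fits 0 were higher (background 0.286 and 0.0508%, with 1 and 0 at an unadjusted p under 0.05). The 2 sites called lower by edgeR in all mice with the offset were an intronic site of Acad9 at 35970375 to 35970380 on chromosome 3 (AL-young 94.5%, CR-old 63.5%) and an intronic site of Bcar3 at 122135946 to 122135951 on chromosome 3 (89.5% and 45.99%). The 2 comparisons share the AL-young mice.

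The sites that had fallen were spread over all 19 autosomes and over every kind of gene body sequence. The share that was at least 10 points lower in AL-old mice was 18.0% in introns and 10.9% in coding exons. It was 23.7% in the first 20% of the gene and between 13.4 and 18.1% in each later stretch of that length. With fewer than 5 CpGs in 500 bp the share was 20.5%, and with 12 or more it was 12.8%. Neither GC content nor the length of the gene or the distance to a CGI ordered the sites more clearly, and across the 2088 sites Pearson's r with the AL-old minus AL-young difference was between -0.0205 and 0.0559 for these and the CpG measures, the position along the gene and the distance to a start. Sites are not independent replicates, and they share the libraries and their depth. The largest gradient ran with the AL-young level itself, which the rule and the difference both use. Of 121 sites with an AL-young mean under 85%, 38.8% had fallen, against 8.08% of 1226 sites at 95% or more. Adjacent sites moved in part together. In 888 pairs of neighbours up to 1000 bp apart, with a median gap of 218.5 bp, both were at least 10 points lower in 64 pairs and only 1 of them in 130 (Pearson's r = 0.637 and Spearman's rho = 0.517 across pairs).

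**Figure D3:**
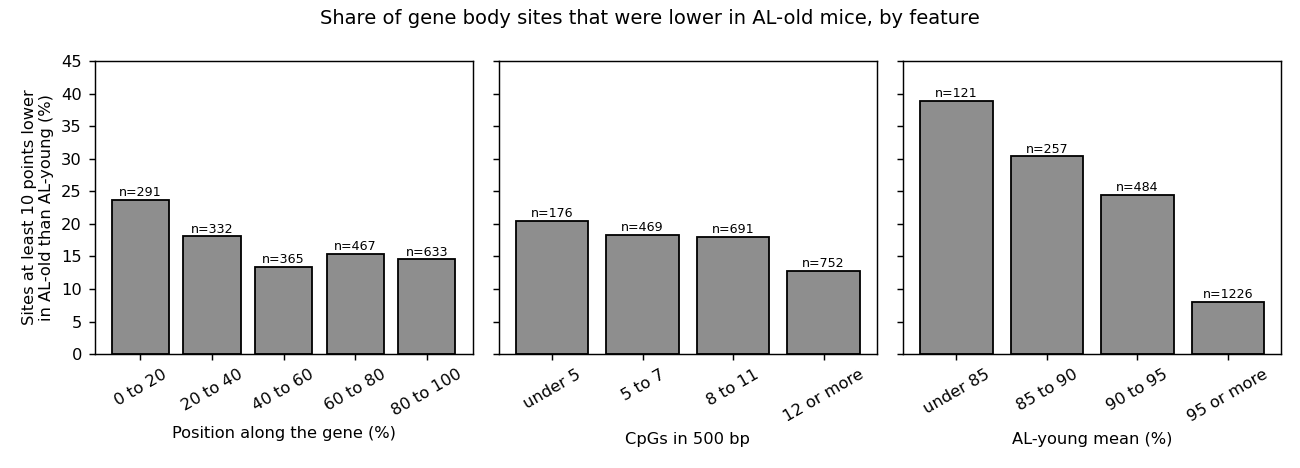
Share in percent of gene body sites whose mean fell by at least 10 points from AL-young to AL-old, by position along the gene, number of CpGs in 500 bp and AL-young mean, with the number of sites above each bar. The share is highest in the first 20% of the gene (23.7%) and at AL-young means under 85% (38.8%).

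A site in a coding exon of Sik1, a kinase related to the energy sensor AMPK, at 31984087 to 31984092 on chromosome 17 was at 95.6, 93.1, 96.4, 95.3 and 95.6% in the 5 AL-young animals. Among AL-old mice it ran from 3.78% over a median of 13.6% to 95.5%, and the highest value belonged to AL-old 25, the next being 29.8%. In CR-old mice it was at 82.4% (CR-old 02), 70.5% (CR-old 06), 85.5% (CR-old 19), 91.4% (CR-old 20) and 94.3% (CR-old 22). All CR-old mice thus lay above 6 of 7 AL-old mice, and 4 of 5 lay below the AL-young mice. CR-old exceeded AL-old by 59.0 points in mean, or 5.03 in log2 odds (edgeR SE 0.806, adjusted p = 8.34e-05), and 457 to 3910 reads per mouse stood behind the values.

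A site in a coding exon of Zbtb32, a zinc finger repressor of lymphocytes, at 31375182 to 31375187 on chromosome 7 behaved alike, with AL-old mice from 2.78 over 7.48 to 74.6%, again highest in AL-old 25. CR-old mice were at 75.8% (CR-old 02), 34.7% (CR-old 06), 74.0% (CR-old 19), 79.9% (CR-old 20) and 80.5% (CR-old 22), so the high-correction mouse was the lowest of its group. The AL-young mean was 83.1 ± 2.96% (n = 5). For CR-old over AL-old mice the difference in log2 odds was 4.70 (edgeR SE 0.755, adjusted p = 8.34e-05).

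An intronic site of Cyba, which encodes the membrane subunit of the NADPH oxidase of phagocytes, at 124951911 to 124951916 on chromosome 8 ran from 5.99 over 28.5 to 81.4% in AL-old mice. CR-old mice were at 68.7% (CR-old 02), 67.6% (CR-old 06), 73.5% (CR-old 19), 84.6% (CR-old 20) and 88.6% (CR-old 22), and AL-young mice at 82.9 ± 2.68% (n = 5). Here too only AL-old 25 reached the CR-old range (log2 odds 3.56 higher, edgeR SE 0.731, adjusted p = 9.45e-04). Dusp10, a phosphatase that switches off stress-activated MAP kinases, had an intronic site at 185871226 to 185871231 on chromosome 1 with AL-old mice from 8.31 over 39.6 to 91.4%. The CR-old mice had 75.01, 71.9, 75.5, 85.7 and 92.1% in the order above, and AL-young mice had 92.8 ± 1.03% (log2 odds ratio 3.26, SE 0.753, edgeR adjusted p = 0.00265).

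At the other named sites of this kind the AL-old mean was also the lowest of the 3 groups. Both measured sites of Grk6, a kinase that desensitizes G protein-coupled receptors, lay in an intron on chromosome 13. AL-old mice ran from 10.2 to 82.9% at 55552033 and from 9.24 to 86.0% at 55552226, with CR-old means of 72.7 and 86.6% (edgeR adjusted p = 0.0109 and 0.00138). Tmem222, which encodes a transmembrane protein, Dnahc1, a heavy chain of the dynein of cilia, and Plcd3, a phospholipase C, had intronic sites with AL-old means of 36.9, 36.9 and 47.7% and CR-old means of 82.8, 81.5 and 87.1% (edgeR adjusted p = 0.00151, 0.00151 and 0.00646). At the Plcd3 site AL-old 14 was at 91.5%, next to AL-old 25 at 92.0%. Nfix had an intronic site at 87310478 to 87310483 on chromosome 8 where AL-young mice had 80.9 ± 5.002%, AL-old mice 7.29 to 69.4% and CR-old mice 48.3 to 74.9% (edgeR adjusted p = 0.00484). AL-old 25 was the highest AL-old mouse at these Sik1, Zbtb32, Cyba, Dusp10, Grk6, Tmem222, Dnahc1, Plcd3 and Nfix sites.

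**Figure D4:**
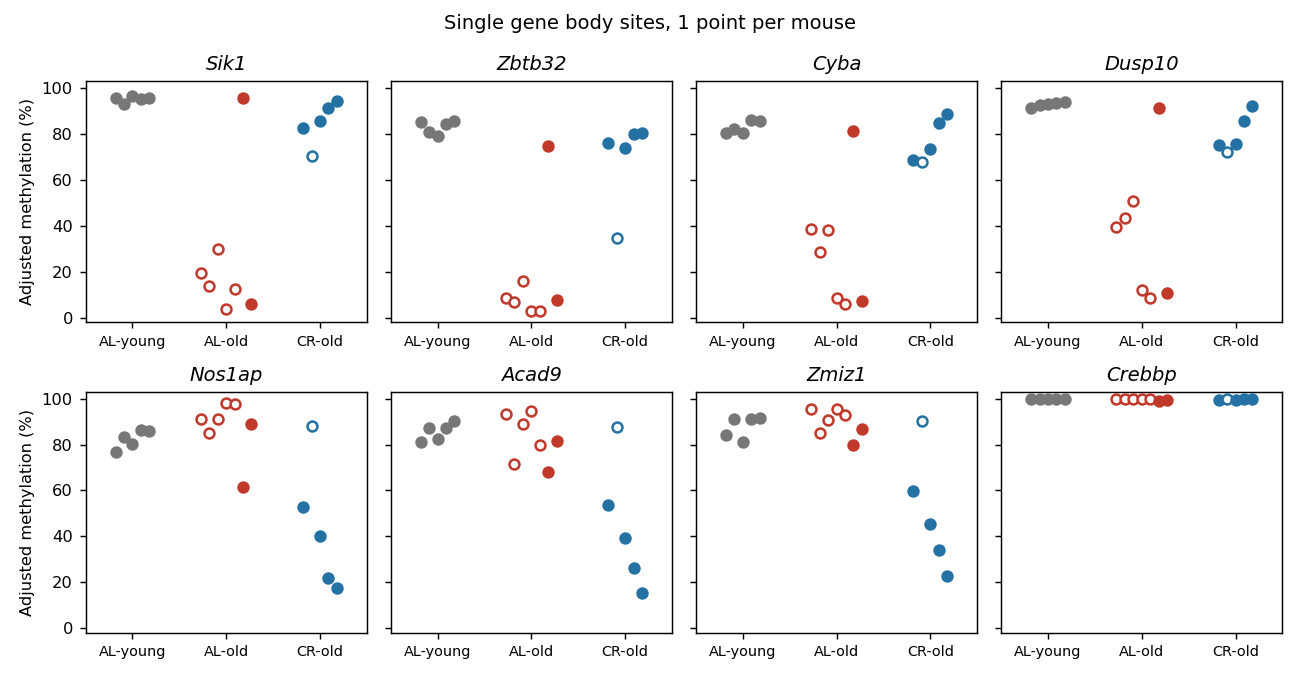
Adjusted methylation in percent at 8 single gene body sites, 1 point per mouse, open points for high-correction mice. In the upper row 6 of 7 AL-old mice lie below the CR-old and AL-young mice, and in the first 3 panels of the lower row 4 of 5 CR-old mice lie below the AL-old mice, while Crebbp stays at 98.82% or more in all mice.

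Tested across all sites, 50 gene body sites were called with a higher level in CR-old mice (2.39%, background over all tested sites 1.22%) and 164 with a lower level (7.85%, background 6.96%). The lower share is near that of all tested sites. Both sets were chosen by the values described next. The 50 higher sites lay in 41 genes, 41 of them in introns, with a median difference of 31.8 points. Their median level over sites was 93.1% for AL-young, 50.8% for AL-old and 85.4% for CR-old mice, and at all 50 the AL-young mean was above the CR-old mean. Mouse by mouse the median over these sites was from 21.4 to 55.6% in 6 AL-old mice and 91.9% in AL-old 25. It was between 79.9% (CR-old 06) and 92.5% (CR-old 22) in CR-old mice. Without AL-old 25 the number of higher sites was 101. Leaving out CR-old 20 gave 29 sites, and leaving out CR-old 22 gave 26. No share over all tested sites is given for these fits, so nothing particular to gene body sites is read from their counts.

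The 164 lower sites, in 136 genes, made a different pattern of small shifts near full methylation. Their median level was 96.7% for AL-young, 98.4% for AL-old and 93.6% for CR-old mice, with a median difference of -4.93 points, and 38 of them differed by at least 10 points. At 145 of the 164 the AL-young mean lay between the other 2. By mouse the median over these sites was 98.7 to 99.6% in the 5 high-correction AL-old mice, 98.6% in the high-correction CR-old 06, 96.3% in AL-old 25, 96.8% in AL-old 27, 96.1 to 97.1% in AL-young mice and 90.1 to 93.6% in the other 4 CR-old mice. The high-correction mice of both diets were thus at the top, and the part of the correction in this result was not tested beyond the fits given here. Without 1 mouse the number of lower sites was 365 (CR-old 06), 303 (AL-old 27), 291 (AL-old 25), 108 (AL-old 13), 89 (CR-old 02), 76 (CR-old 22), 58 (CR-old 20) or 51 (CR-old 19). For these fits too, no share over all tested sites is given.

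**Figure D5:**
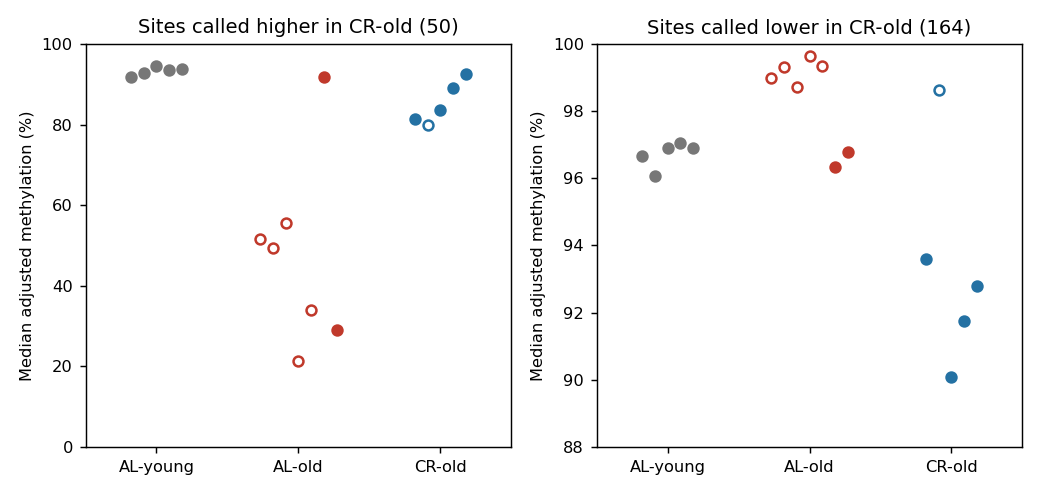
Median adjusted methylation in percent over the 50 gene body sites called higher (left, axis from 0) and the 164 called lower (right, axis from 88%) in CR-old than in AL-old mice, 1 point per mouse, open points for high-correction mice. On the left AL-old 25 lies among the CR-old mice, and on the right CR-old 06 lies next to the high-correction AL-old mice, where the sites were chosen by these same values.

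The calls depended on how the correction was treated. In a fit of the reads without the correction, CR-old mice were higher at 69 gene body sites (3.30%, background 1.65%) and lower at 29 (1.39%, background 1.77%). Of the 50 higher sites 49 (98%) were among those 69 (71.01% of them), and 29 of the 164 lower sites (17.7%) were all 29 of the others. When the model held a term for high against low correction in place of the offset, 1 site was higher (background 0.0381%) and 0 lower (background 0.381%), with 117 and 59 at an unadjusted p under 0.05. The single site was in an intron of Anapc5, which encodes a subunit of the anaphase-promoting complex, at 123246688 to 123246693 on chromosome 5, with CR-old mice from 94.5 to 99.6% and AL-old mice from 65.2 to 95.7%. In the 2 AL-old and 4 CR-old mice with a factor under 1.3, 0 gene body sites were called in either direction (background 0% for each), with 147 higher and 297 lower at an unadjusted p under 0.05. With the old mice alone in the fit the numbers were 32 higher (background 0.737%) and 92 lower (4.72%), and with limma 39 (1.22%) and 186 (6.67%). At the 16 sites named for diet the direction among mice with a factor under 1.3 was that of all mice. The sites were chosen by values that include those of these mice, so nothing is read from the shared direction. At the Sik1 site, for one, the 2 AL-old mice in that fit were at 95.5% (AL-old 25) and 6.06% (AL-old 27). The edgeR adjusted p at the 16 sites in that fit was between 0.0687 and 0.427.

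Every CR-old mouse was above every AL-old mouse at 4 gene body sites, or 0.192% (background 0.286%), and below at 44, or 2.11% (background 2.25%). The 4 were an intronic site of Trp73, a relative of the tumour suppressor p53, an intronic site of Blm, the helicase lost in Bloom syndrome, and 2 intronic sites of Slc20a2, a phosphate transporter. AL-old 25 had from 66 to 91 reads there and so no value, and the groups were apart over the 3 or 4 AL-old mice that were measured. AL-old mice ran from 18.6 to 43.4% at the Blm site and CR-old mice from 78.4 to 85.9% (edgeR adjusted p = 0.00809, with all reads in the fit).

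Among sites called lower in CR-old mice, 12 had groups that did not overlap. The 5 of them named here met the further rule of 100 reads in all old mice and 1 site per gene, and were close to full methylation. In a coding exon of Tnrc18 at 143549042 to 143549047 on chromosome 5, AL-old mice ran from 95.3 over 98.4 to 99.55% and CR-old mice were at 86.55% (CR-old 02), 92.5% (CR-old 06), 88.5% (CR-old 19), 85.5% (CR-old 20) and 89.45% (CR-old 22). AL-young mice had 94.8 ± 1.10% (n = 5), between the other groups (log2 odds ratio -2.91, SE 0.621, edgeR adjusted p = 0.00135). At the sites of 4930586N03Rik and Gm17021, which have only database names, of Tmem63b, which encodes a membrane channel, and of Lass4, a ceramide synthase, CR-old means were 2.25 to 5.57 points below AL-old means of 99.2% or more (edgeR adjusted p from 7.78e-04 to 0.00108).

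Larger decreases were found at sites where the groups overlapped because of CR-old 06. An intronic site of Nos1ap, an adaptor of neuronal nitric oxide synthase, at 172503625 to 172503630 on chromosome 1 was at 52.6% (CR-old 02), 88.2% (CR-old 06), 40.2% (CR-old 19), 21.8% (CR-old 20) and 17.4% (CR-old 22). AL-old mice ran from 61.4% in AL-old 25 over 91.0 to 98.2%, and AL-young mice had 82.6 ± 4.04% (n = 5). For CR-old over AL-old mice the difference in log2 odds was -3.88 (edgeR SE 0.779, adjusted p = 8.19e-04). An intronic site of Acad9, which encodes an acyl-CoA dehydrogenase of mitochondria, at 35970221 to 35970226 on chromosome 3 was at 53.7, 87.6, 39.5, 26.4 and 15.5% in the same order, against 68.0 over 81.3 to 94.7% in AL-old mice (log2 odds ratio -2.90, SE 0.718, edgeR adjusted p = 0.00525). The order of the 5 CR-old mice was therefore the same at both sites. Without CR-old 22 the edgeR adjusted p at this Acad9 site was 0.0503, and in the fit without the correction it was 0.0586.

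Zmiz1, a coactivator of the PIAS family, was the only gene with sites called in both directions, and 5 of its sites on chromosome 14 were measured. At 26399108 in an intron CR-old mice had 59.8, 90.1, 45.55, 34.1 and 22.8%, the same order again, against 79.9 to 95.6% for AL-old and 87.8 ± 4.77% for AL-young animals (edgeR adjusted p = 0.00144). The next site, at 26399364, stayed between 91.8 and 98.7% in all old mice (edgeR adjusted p = 0.363). At 26435479 in an intron and 26466263 in a coding exon the AL-young means were 92.3 and 87.1%, AL-old mice ran from 17.9 to 92.2% and from 20.4 to 80.1%, and CR-old means were 85.1 and 82.2% (edgeR adjusted p = 0.0117 and 0.0171). The site at 26466484 fell from 89.8 to 64.7% in AL-old mice without a call for diet (edgeR adjusted p = 0.148). The gene model named Fgfr2 spans 137305965 to 140315033 on chromosome 7 (mm9), and its 5 measured sites lay between 137718691 and 139424200. As with Gm20388, the name of so wide a model says little about function. The AL-old minus AL-young difference there ran from -14.2 to 7.11 points and 0 sites were called for diet.

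A few sites hardly moved. At an intronic site of Crebbp, a histone acetyltransferase, the 17 mice lay between 98.82 and 99.95%. The sites of 4933411G11Rik, of the caspase gene Casp9 and of Tnip1, an inhibitor of NF-kB signalling, had ranges of 0.690 to 1.31 points over all mice. The 4 largest rises from AL-young to AL-old means among sites measured in all mice were at intronic sites of Dlec1, the phosphatase gene Ppm1h, the kinase gene Pak4 and Phf1, a partner of the Polycomb complex. At the Phf1 site AL-young mice had 83.2 ± 5.49%, AL-old mice 83.45 over 97.1 to 99.3% and CR-old mice 77.1 to 98.3%, with the highest CR-old value in CR-old 06. The 2 AL-old males, both with a factor near 1, were the lowest AL-old mice at all 4 sites. For diet the Dlec1 and Pak4 sites were called lower in CR-old mice (edgeR adjusted p = 0.0483 and 0.0194). Both calls were lost without the offset (0.268 and 0.140), and that of Dlec1 also with limma (0.0575).

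Lists of blood cell and pathway genes, chosen with earlier results of these data known, showed few calls. The lists held 39 T cell, 33 B cell, 46 myeloid, 14 NK and cytotoxic and 23 red cell and platelet genes, and gave 6, 2, 11, 0 and 8 gene body sites. The median AL-old minus AL-young difference was -7.21 points for T cell, -1.54 for B cell, -3.00 for myeloid and -4.60 for red cell and platelet sites, against -1.13 over all gene body sites. Each list held sites that went either way. By site the difference ran from -26.5 to 4.28, -3.52 to 0.450, -53.1 to 5.56 and -29.5 to 7.35 points in the same order. For diet 1 myeloid site was higher (Cyba, above) and 4 were lower, beside 1.22 and 6.96% of all tested sites. Without the offset 1 was higher and 1 lower. In the T cell, B cell and red cell lists 0 sites were called, which at these few sites says little. The lower myeloid sites were in Prtn3, a protease of neutrophil granules, in Mmp9, a matrix protease, and at 2 places in Emr1, the macrophage marker F4/80. Their AL-old minus AL-young differences were -5.98 points at Prtn3, 0.457 at Mmp9 and 1.86 and 4.92 at the Emr1 sites. Only the Emr1 site at 57587763 kept the call without the offset (edgeR adjusted p = 0.0425), against 0.177 at Prtn3, 0.117 at Mmp9 and 0.175 at the other Emr1 site. The Prtn3 site was at 72.1% (CR-old 02), 80.9% (CR-old 06), 59.3% (CR-old 19), 41.8% (CR-old 20) and 30.3% (CR-old 22), against 67.9 to 96.7% in 6 AL-old mice (edgeR adjusted p = 0.0220). Among the defining T cell genes, Cd3g of the T cell receptor complex had an intronic site at 87.5 ± 2.20% in AL-young, 32.2 to 83.85% in 5 AL-old and 64.3 to 90.05% in CR-old mice (edgeR adjusted p = 0.141). Itgam, the integrin CD11b of myeloid cells, had one at 91.6 ± 2.44% in 4 AL-young, 36.3 to 91.8% in 5 AL-old and 77.3 to 88.7% in 4 CR-old mice (edgeR adjusted p = 0.136). In Zfpm1, a cofactor of the red cell factor GATA1, AL-old 14 and AL-old 27 were at 23.0 and 30.3% at 124822893 on chromosome 8 and the other 3 measured AL-old mice between 90.9 and 98.5%. That site was called higher in CR-old mice only without the offset (edgeR adjusted p = 0.0324, against 0.0917 with it). The part of cell type shares in these values was not tested, since methylation at these sites gives no cell counts.

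Immune signalling genes (67 in the list) had 15 sites with a median AL-old minus AL-young difference of -0.958 points and 2 sites lower for diet, both in Nfatc2, a transcription factor of activated T cells (CR-old means of 94.5 and 95.4% against 99.3 and 99.0% in AL-old mice, edgeR adjusted p = 0.00194 and 0.0107). Without the offset these p were 0.0227 and 0.0759, so the call of the second was lost. DNA methylation and chromatin genes (100) had 12 sites, a median of -0.497 points and 0 called. Insulin, mTOR and nutrient sensing genes (64) had 13 sites with a median of -0.708 points, of which 1 was higher and 2 were lower for diet. Over all tested sites 1.22% were higher and 6.96% lower, and the calls in these lists are too few to be read against that. An intronic site of Rheb, the GTPase that switches on mTOR complex 1, was higher in CR-old mice (71.45, 70.5, 62.9, 69.7 and 68.1%) than in AL-old mice, which ran from 9.87 over 40.3 to 79.9% with AL-old 25 highest (edgeR adjusted p = 0.0411, limma 0.0536). Sites of Foxo3, a transcription factor held back by insulin signalling, and of Ppard, a nuclear receptor of fatty acids, were lower. The Foxo3 site was at 54.96 to 86.05% in CR-old and 74.9 to 98.8% in AL-old mice (edgeR adjusted p = 0.0224), and the Ppard site at 95.1% against 98.9% in mean (edgeR adjusted p = 0.0186). Without the offset both calls were lost (edgeR adjusted p = 0.140 and 0.188).

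Gene body sites were set beside the most similar sites elsewhere, 1232 intergenic and 245 promoter sites that met the same limits on young methylation and CpG content. The mean level was 93.5, 87.7 and 89.3% at intergenic sites and 93.7, 86.7 and 89.97% at promoter sites (young, old on AL, old on CR). The gene body level exceeded the promoter level by 2.91 ± 1.71 points among the 7 AL-old and by 0.799 ± 0.685 points among the 5 CR-old mice. The difference of -2.11 points had an exact permutation p of 0.0177, which was 0.0884 after Benjamini-Hochberg adjustment over the 5 differences tested, so it did not pass. The excess over intergenic sites was 1.91 ± 1.60 and 1.51 ± 0.392 points (exact permutation p = 0.633, adjusted 0.866, n = 7 and 5). Within the gene body sites, exons exceeded introns by 2.86 ± 1.27 points in AL-old and 2.41 ± 0.635 points in CR-old mice. The diet difference in that excess, in that of sites within 2 kb of a CGI and in that of sites above the median CpG ratio was between -0.455 and -0.0410 points (exact permutation p from 0.497 to 0.943, n = 7 and 5). The mean CR-old minus AL-old difference over gene body sites was 2.10 points in females and 2.09 points in males (exact permutation of diet within sex, 210 splits, p = 1, n = 7 and 5). In raw methylation it was 7.22 and 0.727 points (exact permutation p = 0.329).

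Values next to the limit of 80% in young mice are given as a description. Just inside lay intronic sites of Pla2g2e and Trp73 and a coding site of Mtap4, with raw AL-young means of 80.003, 80.04 and 80.2%, AL-old adjusted means of 57.2, 27.3 and 62.9% and CR-old adjusted means of 75.5, 65.9 and 75.5%. Just outside lay sites of Ppard, Unc5a and Myo15, with raw AL-young means of 79.96, 79.9 and 79.8%, AL-old adjusted means of 82.7, 72.5 and 53.2% and CR-old adjusted means of 80.4, 63.4 and 72.5%.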

How the data were processed

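Whole-blood DREAM libraries of 17 mice were analysed, grouped by the labels. Per the labels, methylation standards were spiked in before digestion. The submitters' processing notes name Bowtie2 and SAMtools and the builds mm9 and mm10 without stating their roles. The authors deposited for each CCCGGG site the counts of methylated, unmethylated and all reads, and methylation in percent, raw and adjusted. The raw percent matched 100 × (methylated reads + 0.5) / (all reads + 1), and the adjusted percent, which the authors derived from the standards, equalled the raw odds times 1 factor per mouse. All 164896 autosomal positions lay on a CCCGGG of NCBIM37 (mm9). Gene models were GENCODE vM1, and CpG islands were called on the genome with a length of at least 200 bp.

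Percent values from under 100 reads were dropped from means. Reads were tested over all 15742 sites with edgeR 4.0.16 (quasi-likelihood, R 4.3.3), with a term per mouse, methylated against unmethylated reads, the log correction factor as offset and all reads of a kept site, also those of mice under 100 reads. A call needed a Benjamini-Hochberg adjusted p under 0.05 and adjusted means at least 2 points apart. In the fits without the offset, the one with the correction covariate included, raw means were used for that limit. Single values per mouse were compared by exact permutation, two-sided. The fit was tried on simulated data for CR-old against AL-old (4000 sites), with 0 false calls. It recovered 3 of 100 changes of log2 odds 1 and 48 of 100 of log2 odds 2. These counts hold for the simulated reads only. In the real data the groups had unequal scatter, largest among AL-old animals, so the 0 gives no error rate for the calls reported here. Alternatives were limma 3.58.1 on log2 odds (0.5 reads added), no offset, a correction covariate in place of the offset, subsets of mice, minima of 20 and 200 reads, an AL-young limit of 90% and leaving out each old mouse. Python 3.11.15 was used for the rest.

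The members and the gene lists were chosen with earlier results of these data known. Named for diet were called sites with 100 reads in all old mice, up to 8 in each direction and 1 per gene, by size of difference, those without overlap first. Named for age were the 8 largest falls and 4 largest rises with 100 reads in all mice, and the 4 smallest ranges. Per list the 2 largest age differences and every site called for diet were eligible. Sites named outside these rules (Csf1, Anapc5, Trp73, Blm, Slc20a2, Bcar3, the second Acad9 site and the further Zmiz1, Grk6, Zfpm1 and Fgfr2 sites) were chosen after their values were seen. A split by repeats was not made, since the genome used was not masked, which left 5 differences in the tested family. Sites share mice, and sequences come from NCBIM37.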

Additional observations from a re-analysis of the deposited data

Results flagged for a closer look

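Dixon's test of the most extreme mouse was made for the named sites in groups of 4 to 7 mice. Of 150 groups tested 20 (13.3%) held a mouse beyond the 95% limit, and chance flags about 1 in 20. The values are given without an explanation.

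Among AL-old mice the extreme mouse was mostly AL-old 25. It was the highest at Sik1 (95.49%, next 29.77%), Zbtb32 (74.59%, next 15.88%) and Nfix (69.43%, next 33.81%). It was the lowest at Tmem63b (98.25%, next 99.43%), Nos1ap (61.44%, next 85.11%), Pak4 (91.27%, next 96.52%), Crebbp (98.82%, next 99.47%), Mmp9 (96.43%, next 99.22%) and the Nfatc2 site at 168310669 (97.79%, next 99.07%). AL-old 27 was the lowest at both sites of Whsc1l1, which encodes a histone methyltransferase (35.07%, next 63.45%, and 36.35%, next 64.97%). AL-old 10 was the lowest at the intronic site of Tcf3, a transcription factor of B cell development (86.51%, next 98.21%).

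Among CR-old mice CR-old 06 was the lowest at Zbtb32 (34.71%, next 74.04%) and Cd3g (64.33%, next 85.54%) and the highest at Pak4 (97.73%, next 89.54%) and Phf1 (98.31%, next 83.07%). CR-old 22 was the lowest at Tmem63b (84.34%, next 96.22%) and 4933411G11Rik (99.27%, next 99.89%), and CR-old 19 at the site of Il10ra, the receptor of interleukin 10 (91.93%, next 94.63%). In the AL-young group 1 mouse, AL-young 15, was low at the Grk6 site at 55552033 (86.22%, next 90.01%).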

How the results depend on the processing

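The mean difference between CR-old and AL-old mice did not pass its test under any setting. It was -0.113 points without AL-old 27 and from -0.113 to 1.85 points over all fits that left out 1 mouse. The spread between mice was 3.32 to 6.13 points larger in AL-old than in CR-old mice when 1 mouse was left out and 9.84 points in mice with a factor under 1.3, where the test cannot pass. The difference of gene body and promoter sites ranged from -2.49 to -1.55 points, that of gene body and intergenic sites from -0.701 to 0.0730 (positive without AL-old 13), that of exons and introns from -0.694 to -0.0928 and that of sites near and far from an island from -0.474 to 0.102 (positive without AL-old 13). The split by CpG ratio ranged from -0.221 to 0.294 points, with 0.213 without AL-old 13, 0.294 without AL-old 27 and 0.149 without CR-old 06. The AL-old minus AL-young description was -5.38 points without AL-old 25 and -8.91 points in raw methylation.

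The number of sites called higher ranged from 26 to 101 and of those called lower from 51 to 365 when 1 mouse was left out. With the correction covariate they were 1 and 0, among mice with a factor under 1.3 they were 0 and 0, with old mice alone in the fit 32 and 92, and without the offset 69 and 29. The cause of these shifts was not tested. With limma they were 39 and 186, with no minimum difference 50 and 182, at 20 reads 73 and 217, and at 200 reads 38 and 121. No share over all tested sites is given for fits without 1 mouse, without a minimum difference or at 20 or 200 reads. Nothing particular to gene body sites is read from those counts. Of the 16 sites named for diet, 16 lost the call with the covariate and 16 among mice with a factor under 1.3, while 1 (Acad9) lost it without the offset and 1 (Acad9) without CR-old 22. No paired analysis was possible because the groups share no replicate numbers and hold different animals. Shallow depth limits AL-old 08 most, with 1270 of the 2088 sites at 100 reads.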

Other observations

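At several sites with low values in CR-old mice the 5 animals had 1 order, a pattern noticed after the values were seen and given without a test. An exonic site of Whsc1l1, a histone methyltransferase gene, at 26825397 on chromosome 8 was at 51.99% (CR-old 02), 82.72% (CR-old 06), 41.12% (CR-old 19), 30.14% (CR-old 20) and 19.73% (CR-old 22), the order also seen at the Nos1ap, Acad9, Zmiz1 and Prtn3 sites. The difference from AL-old mice at this Whsc1l1 site was -19.5 points and was not called (edgeR adjusted p = 0.239). At the other Whsc1l1 site, at 26825193, the same mice were between 73.4 and 85.4%.

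Genes with many measured sites were not uniform either. The 6 sites of Arl15, a small GTPase gene, changed by -0.772 to 2.00 points from AL-young to AL-old means, and the 6 of Slit3, a guidance ligand, by -9.69 to 1.67 points. In Epas1, the hypoxia-inducible factor HIF-2α, 1 of 6 sites fell by 24.9 points and the highest change was 0.797 points. At Zfpm1 the sites at 124830447 and 124830693 had AL-old means of 98.5 and 90.3%, while those at 124822893 and 124823226 had 67.8 and 59.98%.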
